A study of Homo sapiens with 4 samples.

Results

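The MYC, MAX and MXD network was examined in 2 human B-cell lymphoma lines and their rituximab-resistant sublines. The listed genes were MYC, MYCN, MYCL, MAX, MXD1, MXD3, MXD4, MNT, MGA and MLX. Members were all probe sets whose platform annotation gives exactly 1 gene symbol and that symbol is on the list. This gave 34 of 54613 probe sets, for 9 of the 10 listed genes and of 19775 genes named on the array. MXD4 had 0 such probe sets, since its 3 probe sets carry a second symbol, and it was not analysed here. Expression was measured on 4 Affymetrix arrays, 1 each for the mantle cell lymphoma line Jeko-1, its resistant subline Jeko-1/R, the Burkitt lymphoma line Raji and its resistant subline Raji/R. Rituximab is an antibody against CD20 on B cells. The parental cells had no rituximab and the sublines were labelled as treated with it, and the labels do not say how many cultures or clones stand behind a subline.

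The network is a set of transcription factors with a basic helix-loop-helix leucine zipper. MAX is the shared partner. MYC, MYCN and MYCL bind DNA with MAX and drive genes of growth, ribosome production and metabolism. MXD1, MXD3, MXD4 and MNT compete for MAX and recruit SIN3 corepressors, MGA joins MAX in a Polycomb complex, and MLX pairs with the nutrient-sensing factors MLXIP and MLXIPL. The dimers recognise the E-box CACGTG. Burkitt lymphoma is known for a translocation that places MYC under immunoglobulin control.

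The promoter table from RefSeq (GRCh38.p14) gave 9 of the 10 genes a window from 250 bases before to 50 bases after the start of the gene; MYC was not in it. The letters CACGTG, which read the same on both strands, were found in the windows of MXD4, MNT and MLX. In the table as a whole 8.77% of 27305 genes had them. MNT and MLX were also the members that stood lower in the Jeko-1 arrays, as described below, but the letters did not mark a direction. Tested genes with and without them had the same median log2 difference of Jeko-1 minus Raji, -0.28. The sites of MNT and MLX are shown with those of 2 genes that the results turn to later. These are the amino acid transporter gene SLC1A5 and the germline cohesin gene STAG3. The genes shown were all lower in Jeko-1, and others with the letters, such as PPAT and TERT, were higher. Capitals mark the E-box. The stretches lie at chr17:2401226-2401275 (minus strand) for MNT, chr17:42567028-42567077 (plus) for MLX, chr19:46787316-46787365 (minus) for SLC1A5 and chr7:100177725-100177774 (plus) for STAG3.
MNT: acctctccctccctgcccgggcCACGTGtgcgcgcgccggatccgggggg
MLX: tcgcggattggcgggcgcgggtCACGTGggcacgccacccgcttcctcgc
SLC1A5: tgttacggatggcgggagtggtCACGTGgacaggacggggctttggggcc
STAG3: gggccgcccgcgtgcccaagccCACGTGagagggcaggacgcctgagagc
The E-box begins 193 bases before the annotated start in MNT, 50 in MLX, 50 in SLC1A5 and 171 in STAG3. A match of letters is a description of the window and not evidence of binding.

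Each group was 1 array, so a difference within a line has no replicate check. The mantle cell genes CCND1 and SOX11 were at least 199-fold and at least 112-fold higher in the Jeko-1 arrays, and BCL6, a germinal-centre repressor, was 35.2-fold lower there. The other germinal-centre marker, MME, did not separate the lines (201 and 187 for Jeko-1, 223 and 113 for Raji; log2 difference 0.29, adjusted p = 0.447, limma). Of 6 B-cell markers 5 were measured, and the CD79A signal lay between 429 and 1849 on all arrays. These markers differed between the lines as well. CD79A was 3.79-fold, CD79B 3.26-fold and CD22 14.8-fold lower in the Jeko-1 arrays, and MS4A1 was 2.07-fold higher. PAX5 did not pass the test (log2 difference -0.04, adjusted p = 0.939, limma) and was 2.35-fold lower in Raji/R than in Raji. Some markers of other cells reached the signal floor of 77.5 (the pooled median of all values) on at least 1 array: 2 of 5 T-cell, 3 of 4 NK-cell, 1 of 5 myeloid and 4 of 5 epithelial or stromal genes. The brightest were COL1A1 (1916 in Raji and 1465 in Raji/R) and NKG7 (883 and 1749), and their part in the results was not tested. The Raji/R array stood apart, with 55.6% of probe sets at or above the floor against 48.0% to 48.3% on the others.

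The first comparison asked how the network differs between the lines. MYC, MYCN, MYCL, MXD1 and MGA were higher in the Jeko-1 arrays, MNT and MLX were lower, and MAX and MXD3 did not pass the test. Thus 7 of 9 genes were called by limma at an adjusted p below 0.05 (cell line and resistance as terms, 1 residual degree of freedom), with 5 higher and 2 lower in Jeko-1. The lines differ widely, and the same fit called 53.4% of 15575 genes, 23.3% as higher and 30.1% as lower in Jeko-1. The share of the network was 77.8%. MYCN entered the test only through the Jeko-1 arrays and had to stand higher there, so this share is a description. Among genes at or above the floor on all arrays, a setting added after seeing the data, limma called 5 of 7 members and 72.9% of 9219 genes, so the share of the network was near that of all genes. The arrays of both lines did not overlap for 7 of 9 members, which is also true of 80.7% of all genes tested. The 2 arrays of a line are a parent and its subline and not replicate cultures. The p-values set the line difference against how differently the 2 sublines departed from their parents. The empirical Bayes step of limma moderates that spread with the spread of all genes tested. The p-values thus do not measure the spread between cultures of a line.

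**Figure D1:**
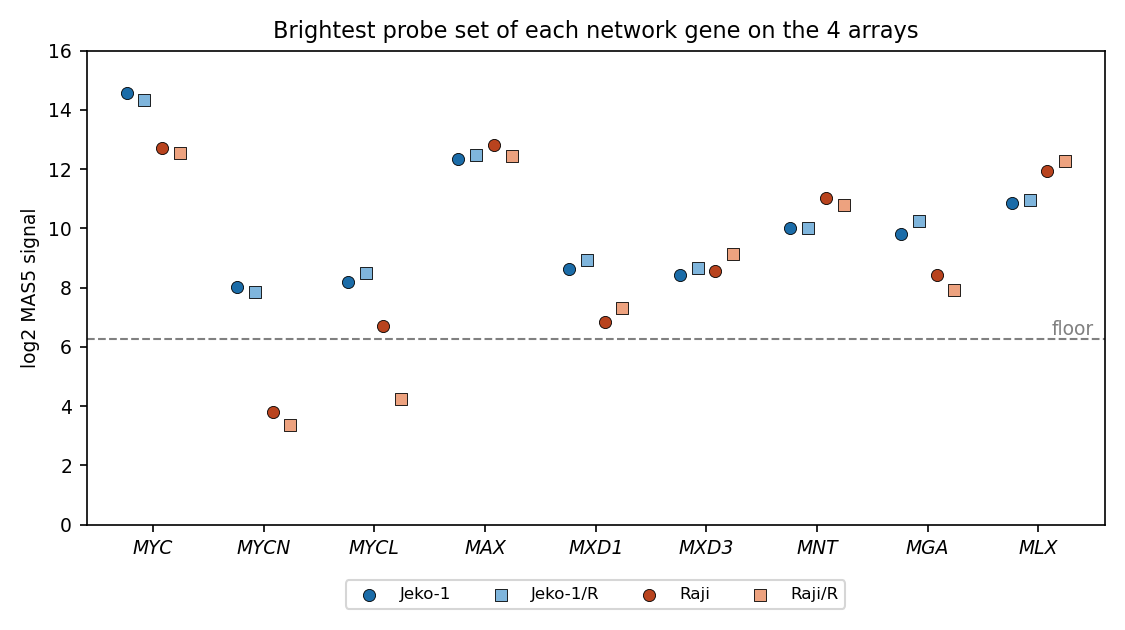
Log2 MAS5 signal of the brightest probe set of each of 9 network genes (vertical axis) on the 4 arrays (points), with the floor at a log2 of 6.28 as a dashed line. The Jeko-1 points lie above the Raji points for MYC, MYCN, MYCL, MXD1 and MGA and below them for MNT and MLX; levels of different genes are read by different probes and are not comparable.

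MYC, the proto-oncogene at the centre of the network, was bright on all arrays and brighter in Jeko-1. Its only probe set gave signals of 24145 (parental) and 20460 (resistant) for Jeko-1, and of 6681 and 6028 for Raji. Both Jeko-1 arrays lay above both Raji arrays, a 3.50-fold difference (log2 1.81 ± 0.24, standard error of the fit; adjusted p = 0.000835, limma). With quantile normalization the log2 difference was 2.60. Of all genes tested, 21.5% differed by as much or more between the lines.

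The relatives of MYC were dimmer and separated the lines as well. MYCN, best known from neuroblastoma, gave 262 and 233 for parental and resistant Jeko-1 on its brightest probe set, but 13.9 and 10.4 for Raji. Both Raji values lie below the floor, so MYCN was at least 3.19-fold higher in Jeko-1. This direction was fixed once only the Jeko-1 arrays reached the floor, and no p-value is given for it. The other 9 MYCN probe sets do not show this. All of them were below the floor on both Jeko-1 arrays, 3 reached it on 1 Raji or Raji/R array, and 6 stayed below it everywhere. Without probe sets ending in s_at or x_at, which may bind transcripts of more than 1 gene, MYCN was represented by another probe set. That probe set reached the floor only on the Raji/R array. Its log2 difference of -0.57 thus had a direction fixed by the floor.

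MYCL, first found in lung cancer, gave 292 and 358 for parental and resistant Jeko-1, and 103 and 18.8 for Raji. It was at least 3.61-fold higher in Jeko-1 (adjusted p = 0.00137, limma), with the Raji/R value below the floor. Its other probe set was above the floor only in the Jeko-1 arrays, at 89.2 and 138, against 6.95 and 38.1 for Raji. The direction of that probe set was thus fixed by the floor, and its log2 difference of at least 0.52 did not pass the test.

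MAX, the obligate partner, was nearly level on its brightest probe set, with 5185 and 5703 for parental and resistant Jeko-1, and 7169 and 5626 for Raji. The groups overlapped, and the log2 difference was -0.22 ± 0.26 (adjusted p = 0.5, limma). Its probe sets differed among themselves. The brightest and 2 others gave differences between -0.22 and 0.16, whereas 214108_at (222 and 199 for Jeko-1, 84.7 and 127 for Raji) and 208403_x_at were 2.02-fold and at least 1.76-fold higher in Jeko-1 (adjusted p = 0.0217 and 0.0318, limma over all probe sets). The files do not say which MAX transcripts each probe set reads.

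The repressors that compete for MAX went separate ways. MXD1, a MAX dimerization protein that rises when blood cells differentiate, gave 397 and 486 for parental and resistant Jeko-1, and 115 and 161 for Raji, which is 3.23-fold higher in Jeko-1 (log2 1.69 ± 0.25; adjusted p = 0.00117, limma). Its second probe set gave 241 and 142 for Jeko-1, and 152 and 173 for Raji, with overlapping lines and a log2 difference of 0.19 (adjusted p = 0.645, limma over all probe sets). The mean of all MXD1 probe sets differed by 0.09, but the floor held this value down. The mean takes in 206877_at, which was below the floor on every array, and passed the floor only on the parental Jeko-1 array. The MXD1 call rests on 1 probe set, since the second did not show the difference.

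MXD3, an MXD member found in proliferating cells, has 1 probe set, with 348 and 404 for parental and resistant Jeko-1, and 380 and 568 for Raji. The lines overlapped, and the log2 difference of -0.31 ± 0.25 did not pass the test (adjusted p = 0.338, limma).

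MNT, the broadly expressed MYC antagonist, was lower in Jeko-1, with 1028 on both Jeko-1 arrays against 2079 (parental) and 1780 (resistant) for Raji. The lines did not overlap, and MNT was 1.87-fold lower (log2 -0.90 ± 0.25; adjusted p = 0.0186, limma). Its second probe set was 2.34-fold lower in Jeko-1 (adjusted p = 0.00612, limma over all probe sets). With the arrays centred on their medians the difference of the brightest MNT probe set was -0.64 (adjusted p = 0.108, limma).

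MGA, the largest protein of the network, was higher in Jeko-1 on every probe set that reached the floor. The brightest gave 896 and 1215 for parental and resistant Jeko-1, and 347 and 245 for Raji, a 3.58-fold difference (log2 1.84 ± 0.30; adjusted p = 0.00202, limma). The 2 others gave 1.84-fold and 3.14-fold (adjusted p = 0.0232 and 0.00211, limma over all probe sets), and the fourth was below the floor on every array.

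MLX, the partner of the glucose-responsive factors, was lower in Jeko-1 on all 5 probe sets that reached the floor. The brightest gave 1851 and 1994 for parental and resistant Jeko-1, and 3947 and 4919 for Raji, which is 2.29-fold lower in Jeko-1 (log2 -1.20 ± 0.25; adjusted p = 0.00554, limma). The other 4 were also lower, by up to 2.65-fold, and 210752_s_at (adjusted p = 0.0973, limma over all probe sets) was the only one of the 5 that did not pass.

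**Figure D2:**
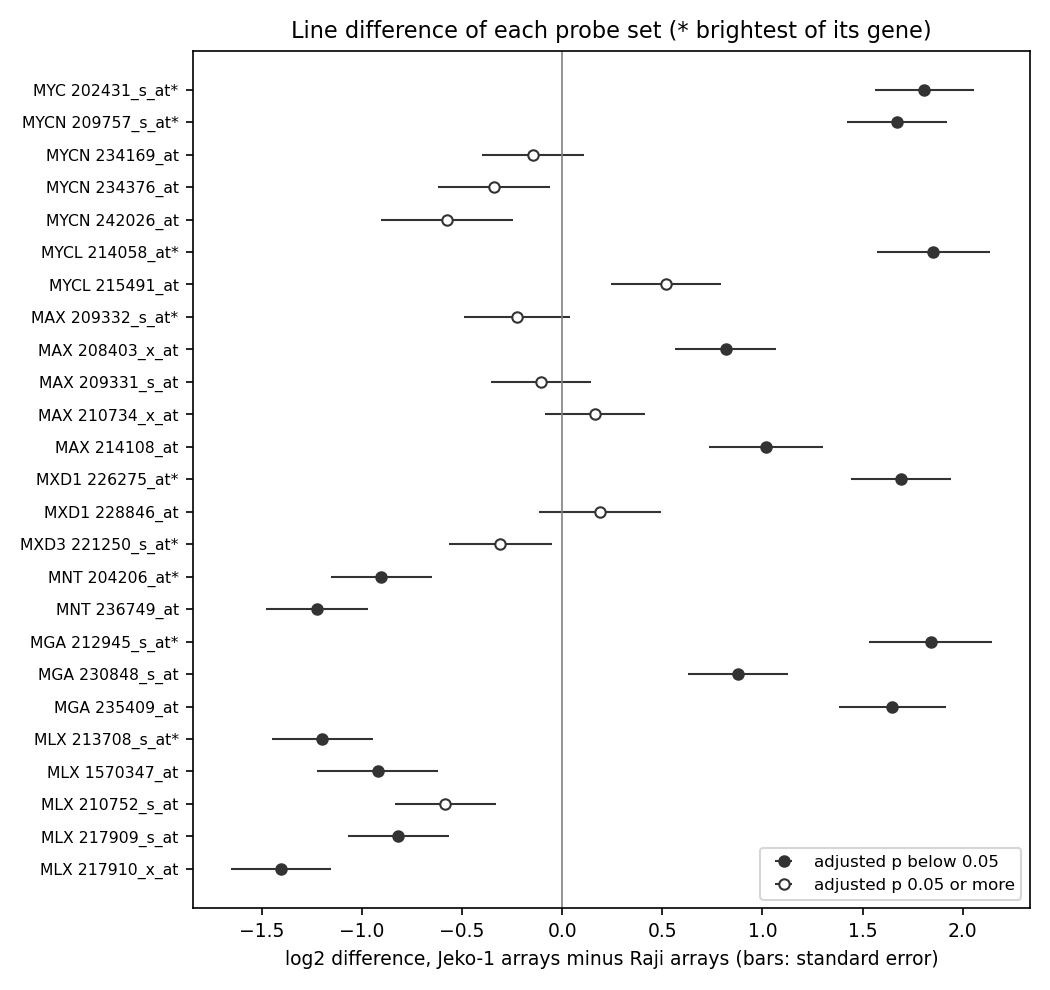
Log2 difference between the Jeko-1 and Raji arrays (horizontal axis, with the standard error of the limma fit over all probe sets) for the 25 member probe sets at or above the floor on at least 1 array; filled points passed an adjusted p of 0.05. MGA, MLX and MNT point one way on all of their probe sets, while those of MYCN, MAX and MXD1 differ among themselves. Values below the floor were raised to it.

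Of the 34 member probe sets 25 passed the floor on at least 1 array, 18 on all arrays and 9 on none. Among the 25, the fit over all probe sets called 15, or 60.0%, with 9 higher and 6 lower in Jeko-1. It called 49.7% of all 29669 probe sets. Probe sets of MYCN and MYCL that passed the floor in only 1 line had to differ to some degree, so this count is a description.

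The line calls depended on how the spread was estimated. Leaving out the Jeko-1 or the Jeko-1/R array left 0 of 15575 genes and 0 of 9 members called by limma, with adjusted p between 0.0606 and 0.129 for the 7 members. Leaving out Raji kept 4 (MYC, MYCN, MNT and MLX) and leaving out Raji/R kept 3 (MYCN, MNT and MLX). Without any floor, 0 genes were called as well, and the adjusted p of the 7 members lay between 0.0729 and 0.15.

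The second comparison was resistant against parental, the question for which the series was made. With values below the floor raised to it, no member reached 2-fold on its brightest probe set in either line. For MYCL in Raji/R this value is only a bound (at least 1.34-fold lower). Over both lines limma, with cell line as the block, called 0 of 9 members (adjusted p from 0.974 to 0.995) and 0.0% of all genes. At an unadjusted p under 0.05 there were 0 members and 324 genes. The largest fitted values were 0.40 ± 0.25 for MXD3 and 0.39 ± 0.25 for MXD1, both positive in both sublines on these probe sets. With median centring they were 0.19 and 0.18. With the mean of probe sets MXD1 was -0.09, but that mean passed the floor only on the parental Jeko-1 array. The second MXD1 probe set went the other way in Jeko-1/R.

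In Jeko-1/R the log2 ratios of the brightest probe sets ran from -0.24 for MYC to 0.44 for MGA, and 0 of 9 genes passed 2-fold, against 0.975% of 11588 genes. Among the 22 member probe sets measured in this pair, 0 passed 2-fold (0.986% of all probe sets did). The widest was the second MXD1 probe set, from 241 to 142 (-0.77), which went against the brightest MXD1 probe set (0.29). The 3 measured MGA probe sets were all positive, at 0.44, 0.50 and 0.18. As a stand-in for error, different probe sets of 1 gene varied with a pooled SD of 0.27 in this pair and 0.56 in the Raji pair, a spread between probe sets and not between cultures.

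In Raji/R, with values below the floor raised to it, the ratios ran from -0.50 for MGA to 0.58 for MXD3. On these values 0 of 8 measured genes passed 2-fold, against 9.64% of 14642 genes. MYCL went from 103 to 18.8, which is below the floor. Its fall of at least 1.34-fold (-0.42) is thus a bound and does not show that MYCL stayed within 2-fold. The brightest MYCN probe set was below the floor on both arrays of this pair. With median centring the ratio of MXD3 was 0.17, that of MXD1 0.08, and that of MLX turned from 0.32 to -0.09. Of 23 member probe sets 2 passed 2-fold (8.70%), against 10.4% of all probe sets. These were MLX 1570347_at, which went from 175 to 387 (2.22-fold) while the other MLX probe sets gave log2 ratios of 0.03 to 0.32, and MYCN 242026_at, which went from 64.1 below the floor to 172 (at least 2.21-fold). A second MYCN probe set, 234376_at, went from 11.3 to 125 (at least 1.61-fold), and the others did not exceed the floor in Raji/R. The Raji/R array reads more probe sets above the floor in general, and its part in these increases was not tested.

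MGA ran in opposite directions in the sublines on its brightest probe set, with 0.44 for Jeko-1/R against -0.50 for Raji/R. The other 2 measured MGA probe sets were positive in Raji/R, at 0.31 and 0.73. With 1 array per group the difference between the sublines was not tested.

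**Figure D3:**
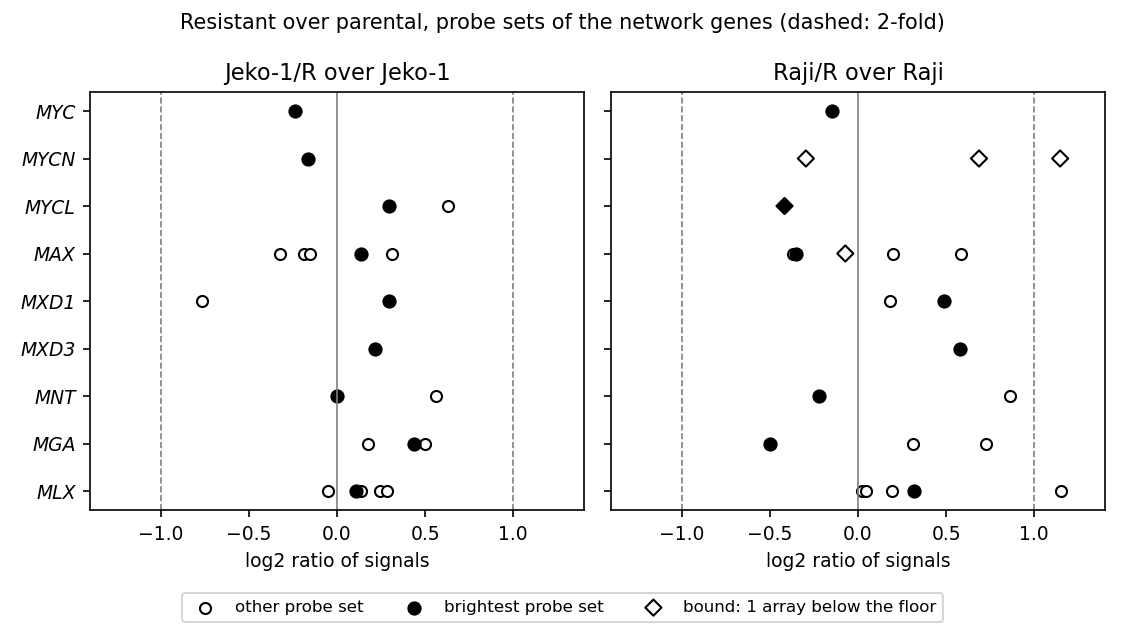
Log2 ratio of resistant over parental signal (horizontal axis) for the member probe sets measured in the Jeko-1 pair (left, 22) and the Raji pair (right, 23); filled symbols are the brightest probe set of a gene, diamonds are bounds with 1 array below the floor, and dashed lines mark 2-fold. All points of the Jeko-1 pair lie within 2-fold, and 2 open symbols of MYCN and MLX lie beyond it in the Raji pair.

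Genes around the network were then read from lists of textbook partners and targets, chosen with earlier results of these data known. Of the related factors, MXI1, an MXD-type repressor, was 1.67-fold lower in Jeko-1 (adjusted p = 0.0468, limma), a call that quantile normalization, median centring and a fit without the resistance term did not keep. MLXIP, a glucose-responsive partner of MLX, stood at -0.14 (adjusted p = 0.695, limma), and MLXIPL was below the floor on every array.

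SIN3 corepressor genes, which carry out repression by MXD and MNT proteins, were called in both directions. Of 13 measured of 15 listed genes, 2 were higher and 4 lower in Jeko-1 (46.2% called, against 53.4% of all genes). All 13 were at or above the floor on all arrays. In the fit of only such genes, 4 of the 13 were higher and 4 lower. Of all such genes 72.9% were called. The deacetylase gene HDAC1 gave 4463 and 4424 on the Jeko-1 arrays against 19763 and 16345 on the Raji arrays, or 4.05-fold lower. SIN3B, a scaffold, was 3.97-fold lower and BRMS1 3.14-fold lower, and ARID4B was 8.26-fold higher. SIN3A, the other scaffold, which lies outside the naming rule and was chosen after its values were seen, was 2.83-fold higher in Jeko-1. The adjusted p of these 5 genes lay between 0.000185 and 0.00294 (limma). The direction of the list's calls was evenly divided or turned to more higher genes under quantile normalization (5 higher and 3 lower) and median centring (4 and 4).

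Partners of MGA in its Polycomb complex were also divided. Of 9 measured of 10 listed genes, 3 were higher and 4 lower in Jeko-1 (77.8% called, against 53.4% of all genes). All 9 were at or above the floor on all arrays. In the fit of only such genes, 3 of the 9 were higher and 5 lower. Of all such genes 72.9% were called. CBX3, a heterochromatin protein, was 4.37-fold higher and PCGF6, the subunit that defines the complex, 2.11-fold higher, while the E2F partner TFDP1 was 2.69-fold lower and the ubiquitin ligase gene RING1 2.44-fold lower. With median centring 3 were higher and 2 lower, and without the Raji/R array 2 and 0.

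MYC cofactors gave 7 lower and 2 higher calls in Jeko-1 among 17 measured (18 listed). The 52.9% called is near the 53.4% of all genes, which were also called lower (30.1%) more than higher (23.3%). Among genes at or above the floor on all arrays, 8 of 17 cofactors were lower and 2 higher. Of all such genes 72.9% were called. The median log2 difference was -0.49, against -0.29 for all genes tested. ZBTB17, the MYC partner in gene repression, was 2.68-fold lower, the ATPase gene RUVBL1 2.59-fold lower and PAF1, of the elongation machinery, 2.33-fold lower. CCNT1, the cyclin of the elongation kinase CDK9, was 2.76-fold higher. With median centring the counts were 4 lower and 3 higher, and without the Raji/R array 4 lower and 2 higher.

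Genes that set the stability of MYC protein gave 10 higher and 3 lower calls in Jeko-1 among 20 measured (21 listed). This is 65.0% called, against 53.4% of all genes. Among genes at or above the floor on all arrays, 10 of 19 listed genes were higher and 3 lower. Of all such genes 72.9% were called. The median was 0.75, and 0.21 with the mean of probe sets, where 12 lay above 0 and 8 below. CIP2A, which shields MYC from a phosphatase, gave 942 and 867 in the Jeko-1 arrays against 102 and 79.3 in the Raji arrays, a log2 difference of 3.33 ± 0.25 (adjusted p = 8.04e-05, limma). The ubiquitin ligase gene FBXO32 was at least 18.8-fold higher, with both Raji arrays below the floor, the deubiquitinase gene USP37 4.86-fold higher, and FBXW7, the classic MYC ubiquitin ligase, named outside the rule, was 4.66-fold higher. STUB1, another ubiquitin ligase, was 7.64-fold lower. The list therefore holds genes that stabilise MYC and genes that destroy it on the same side. Without the Raji/R array 6 were called higher and 0 lower, and with the mean of probe sets 7 and 2.

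MYC target genes of ribosome biogenesis were mostly lower in the Jeko-1 arrays, where the MYC signal was higher. Of 26 measured of 32 listed genes, 17 were lower and 5 higher (84.6% called, against 53.4% of all genes), and the median log2 difference was -1.07. Among genes at or above the floor on all arrays, 16 of 25 listed genes were lower and 5 higher. Of all such genes 72.9% were called. RCL1, a ribosomal RNA processing gene, gave 348 and 444 in the Jeko-1 arrays against 2858 and 3270 in the Raji arrays, or 7.77-fold lower. GRWD1, a ribosome assembly chaperone, was 5.50-fold lower and FBL, the nucleolar methyltransferase, 4.17-fold lower, while NOP58, a partner of FBL in the same particle, was 7.04-fold higher. The counts were 14 lower and 6 higher with quantile normalization, 13 and 6 with median centring, and 10 and 4 without the Raji/R array.

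Targets of growth and metabolism gave 19 lower and 5 higher of 33 measured (35 listed), with a median of -0.78. This is 72.7% called, against 53.4% of all genes. Among genes at or above the floor on all arrays, 19 of 32 listed genes were lower and 6 higher. Of all such genes 72.9% were called. SLC19A1, a folate carrier, was 6.53-fold lower, SLC1A5, a glutamine transporter, 5.06-fold lower and SLC3A2, a chain of amino acid exchangers, 3.86-fold lower, and the polyamine enzyme gene SRM was 4.16-fold lower. The count depended on scaling: with quantile normalization 12 were lower and 7 higher, and the median was -0.19 where that of all genes was -0.31. Without the Raji/R array 7 were lower and 4 higher, and with probe sets of the s_at and x_at kind left out 9 and 6 of 21 measured.

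Genes that MYC represses had 4 lower and 1 higher call among 11 measured (12 listed), or 45.5%, below the share of all genes. The lower calls include NDRG2, which was below the floor on both Jeko-1 arrays (25.2 and 39.7), so that its direction was fixed by the floor. Among genes at or above the floor on all arrays, 3 of 6 listed genes were lower and 1 higher. Of all such genes 72.9% were called. Their median was -0.09. CDKN1A, the p21 cell cycle inhibitor, gave 823 and 1023 in the Jeko-1 arrays against 3825 and 3737 in the Raji arrays, or 4.12-fold lower (adjusted p = 0.000564, limma). GADD45B, a stress gene, was 2.93-fold lower, and the cyclin gene CCNG2 was 2.06-fold higher. With median centring 2 were lower and 2 higher, and without the Raji/R array 2 and 0.

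**Figure D4:**
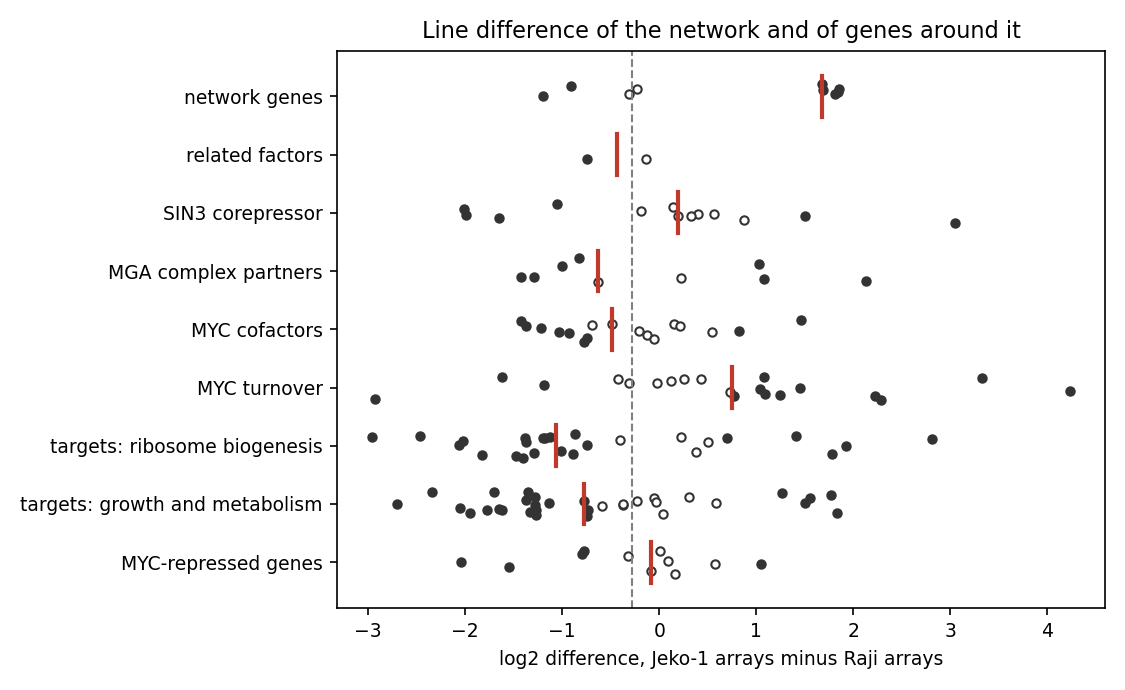
Log2 difference between the Jeko-1 and Raji arrays (horizontal axis) for each measured gene of the network and of 8 lists around it; filled points passed an adjusted p of 0.05 (limma), red bars are list medians and the dashed line is the median of all genes tested, -0.29. The medians of both target lists, -1.07 and -0.78, lie left of the dashed line. The bar of the network is the floored value of MYCN (1.67) and moves to -0.22 when only genes above the floor on all arrays are kept.

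Between resistant and parental cells these lists moved little. In Jeko-1/R 0 genes of the 8 lists passed 2-fold, against 0.975% of 11588 genes. List medians lay between -0.28 and 0.03, where the median of all genes was 0.001. The lowest median is that of the 2 related factors, with MXI1 going from 6443 to 3650 (-0.82). In Raji/R 2 genes passed 2-fold: BTRC, a ubiquitin ligase adaptor, from 561 to 266 (-1.08), and NDRG1, a MYC-repressed stress gene, from 90.9 to 196 (1.11). The medians of the ribosome biogenesis targets were -0.04 for Jeko-1/R, -0.11 for Raji/R, and those of the growth targets -0.07 and 0.02. The median of all genes in the Raji pair was 0.08.

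The E-box letters were common in the promoter windows of the target lists. They were present in 13 of 25 ribosome biogenesis genes with a window (52.0%) and in 19 of 31 growth genes (61.3%), against 11.9% of 12348 tested genes. They did not mark a direction between the lines: 58.1% of 1468 tested genes with the letters and 54.3% of 10880 without them were called, and both groups had a median log2 difference of -0.28.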

How the data were processed

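Total RNA of each culture was extracted with Trizol and 6 µg was labelled with biotin, per the labels' protocols. The authors deposited log2 signals from MAS5, per the submitters' processing notes. MAS5 scales an array by 1 factor, which leaves intensity-dependent differences between arrays uncorrected. The base of 2 was read from the values. Of 54613 probe sets, 41091 had 1 symbol, 1801 several and 11721 none; gene IDs of 41037 matched RefSeq and 0 symbols changed.

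The pooled median (log2 6.28, signal 77.5) served as the floor for lower values. Where a gene had several probe sets, the brightest by mean signal stood for it. Genes that reached the floor on any array entered limma 3.58.1 (R 4.3.3), with cell line and resistance as terms, empirical Bayes moderation and two-sided Benjamini-Hochberg adjustment over all genes. Within a line there was no test, and 2-fold counted as changed. A ratio with a value below the floor is written "at least". The pairing of the resistance comparison comes from the cell lines. The number of arrays limits the precision. The members, lists and tests were chosen with earlier results of these data known. Named genes were all members and, per list, up to 4 genes with the largest called difference; others are marked. The line fit was tested on simulated data. Alternatives covered scaling, floor, probe set choice, model terms and single arrays. Python 3.11.15 and matplotlib 3.10.9 were used.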

Additional observations from a re-analysis of the deposited data

How the results depend on the processing

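The 7 line calls (5 higher, 2 lower) of limma became 4 (2 higher) once the floor was set to the 75th percentile, and 0 (0 higher, 0 lower, 0 of all genes) with no floor. With the mean of probe sets 3 members were higher, with median centring 1 was lower, and among genes at or above the floor on all arrays, a setting added after seeing the data that drops MYCN and MYCL, 3 were higher. Leaving out 1 array, with cell line as the only term, gave 0 to 4 members called, 0 to 2 higher and 0 to 2 lower, and 0 to 9223 genes called in all. Quantile normalization, the fit over all probe sets and a fit without the resistance term kept 7 members. Without x_at and s_at probe sets MYCN (-0.57) and MAX (1.02, from -0.22) changed sign. Both are then read by another probe set, and that of MYCN reached the floor only on the Raji/R array. MYC and MXD3, whose only probe sets are of the s_at kind, drop out of this setting. The median line difference of all genes was -0.29, -0.31 with quantile normalization and -0.15 with median centring.

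For resistance, 0 members were called under every setting run, also with no replicate block (cell line left out), and 4 genes in all with median centring. Members past 2-fold in Raji/R were 1 with no floor (MYCL, -2.46) and 2 without x_at and s_at probe sets. All genes past 2-fold were 26 for Jeko-1/R and 139 for Raji/R with the higher floor, and 3925 and 6190 with no floor. Leaving out an array of a pair was not possible in the resistance comparison, which has 1 array per group.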

Other observations

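Further lists follow the network further downstream. TXNIP, the glucose-responsive target of MLX and MLXIP, gave 1811 and 1045 for parental and resistant Jeko-1, and 11906 and 8858 for Raji. It was 7.47-fold lower in the Jeko-1 arrays (adjusted p = 0.000139, limma), the same side as MLX, and was not called without the Raji/R array or either Jeko-1 array. The other target, ARRDC4, was at least 1.73-fold higher in the Jeko-1 arrays and did not pass the test (adjusted p = 0.0597, limma), though it was called higher with quantile normalization and with median centring. Both sublines had less TXNIP than their parents, with log2 ratios of -0.79 and -0.43, neither past 2-fold.

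Germline genes that the MGA complex silences were mostly below the floor. Of 10 listed genes 4 were measured, and 2 were called lower in the Jeko-1 arrays, as were 30.1% of all genes. The meiotic cohesin gene STAG3 gave 188 and 256 for parental and resistant Jeko-1, and 3203 and 3211 for Raji, a 14.6-fold difference (adjusted p = 5.84e-05, limma). MAEL, a piRNA pathway gene, was at least 1.87-fold lower in Jeko-1, with both Jeko-1 arrays below the floor, so that its direction was fixed by the floor.

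On values raised to the floor the brightest MGA probe set spanned 2.31 on the log2 scale over the 4 arrays. This is the widest such range among the members, but those of MYCL (2.21) and MYCN (1.76) are lower bounds. The MGA profile compared here is that of this probe set alone. It fell in Raji/R (log2 ratio -0.50), whereas the other 2 measured MGA probe sets rose there (0.31 and 0.73). Among 9212 genes above the floor on all arrays, the 5 with the most similar centred profile were ZNF81, ARFGEF1, TM9SF3, PLXNC1 and TRMT10A, with root mean square differences of 0.05 to 0.07 on the log2 scale over 4 arrays.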
